A study of Mus musculus with 75 samples.

Results

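The RB culture of the wild type line of strain DBA/2:C57BL/6 was followed from day 3 to day 9 in 8 of the 75 libraries of the series. The libraries were chosen by their labels alone: 2 of RB day 9 were set against 2 of CT day 3, and 2 of RB day 5 with 2 of RB day 7 gave the path between these ends. All were of mouse primordial germ cell-like cells (PGCLCs), cells made in culture to resemble the embryonic founders of eggs and sperm. Every group compared here, the CT groups included, carried the reporter transgenes Prdm1-mVenus Tg/0 and Dppa3-ECFP Tg/0. Each was grown on mitomycin-treated m220 feeder cells with Forskolin and Rolipram, and was sorted as SC(+) cells. The agents that direct the female fate were added from day 3. The labels do not spell out CT, RA and RB. In the published study RB is retinoic acid together with a bone morphogenetic protein (BMP). No CT library of this line later than day 3 was used here, so time in culture and RB cannot be told apart within it. A line of strain 129S1:C57BL/6 with the same 2 reporters was set beside it, with 2 libraries each of RB days 5, 7 and 9 and of CT days 3 and 9. Further groups of 2 libraries of that line entered the filter and the fit only, where they add to the estimate of spread. They were day 0, CT days 5 and 7, and RA days 5, 7 and 9. Strain, line and experiment cannot be told apart between the lines. The labels do not say that the 2 libraries of a group were separate cultures, so a p-value here measures the spread between libraries, which may be technical.

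In the fetal ovary, germ cells leave the mitotic cycle and enter meiosis, the pair of divisions that makes haploid cells. Retinoic acid and BMP signals act together on this step. Retinoic acid induces Stra8, a factor of meiotic entry, and BMP acts through SMAD proteins, whose classical targets are the Id genes. At entry the chromosomes are rebuilt around meiotic cohesins and an axis, are cut by SPO11 and pair by recombination, while the pluripotency network of the early germ cell is shut down. Many germ cell promoters are methylated in somatic cells and lose that methylation as primordial germ cells develop.

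The values are RPM, reads scaled to the same total of reads assigned to genes in every library, from 3′ end libraries. A gene was called when its Benjamini-Hochberg adjusted p in a limma fit of log2(RPM + 1) was below 0.05 and the log2 difference was at least 1 in size; 12329 of 26218 genes passed the filter of 5 RPM in at least 2 of the 30 libraries fitted. The low values of the 8 libraries show that 3 reads are worth 0.192 to 2.52 RPM, depending on depth (0.700 to 1.19 RPM in the 129S1:C57BL/6 line). In the wild type libraries numbered 1 this floor rose with the day, at 0.192, 0.731, 2.17 and 2.52 RPM for days 3, 5, 7 and 9. In those numbered 2 it was 1.02 to 1.46 RPM. Depth and day thus go together in the former, which limits values of a few reads at days 7 and 9. The spike-in RNAs took 32830 to 48450 RPM in the 4 libraries numbered 1 and 5.10 to 36.0 RPM in the 4 numbered 2, a difference that runs across all days alike. Libraries of 1 group correlated at Pearson's r of 0.957 to 0.980 across genes. The germ cell markers Ddx4 and Dazl were present in each library, from 35.4 RPM for Ddx4 upward. Of the 12 germ cell identity markers, 4 were higher and 7 lower at RB day 9 than at CT day 3 (median -1.53). Over all genes tested 28.1% were higher and 16.3% lower. These markers summed to 3808 and 4319 RPM at RB day 9, against 2790 and 2518 RPM at CT day 3. Blood and endothelium markers summed to at most 2.92 RPM. In bulk libraries, fewer cells of a kind and less RNA per cell cannot be told apart.

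By RB day 9 the wild type cells had changed through much of their transcriptome. Of 12329 genes, 3470 were higher and 2011 lower at RB day 9 than at CT day 3, which is 44.5% of all genes tested (28.1% higher and 16.3% lower). With the median of the tested genes set equal in each library the split was 2767 higher and 2716 lower, and with quantile normalization 2531 higher and 2763 lower. The direction of small changes therefore rests on the scaling, and the median over all genes was 0.22 without rescaling and -0.06 with either rescaling. In wild type the library number goes with a difference in spike-in RNA, and with that number as a block 3493 genes were higher and 2022 lower. Genes of meiosis and of the germ line led the genes that rose, and pluripotency, glycolysis and mitosis genes were among those that fell.

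**Figure D1:**
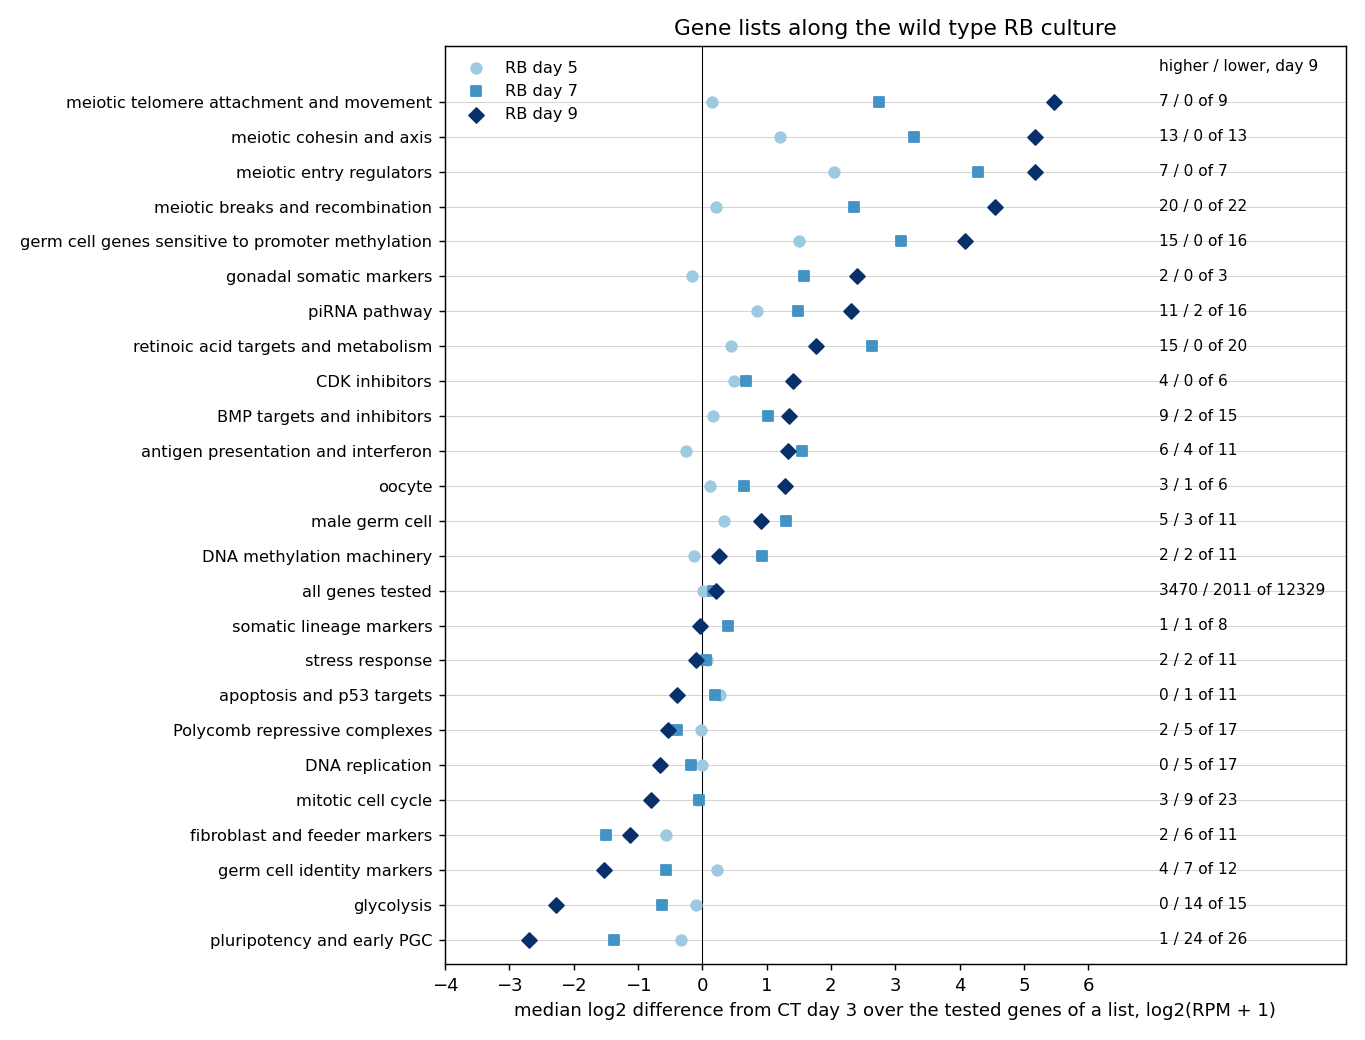
Median log2 difference from CT day 3 of the tested genes of each list (rows) at RB days 5, 7 and 9 of the wild type line, on the log2(RPM + 1) scale, with the numbers called higher and lower at day 9 at the right. The 4 meiotic lists have day 9 medians from 4.55 to 5.48, while glycolysis lies at -2.27 and pluripotency at -2.70, against 0.22 for all genes tested.

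Stra8 (6:34920163-34939344 on mm10), which primes germ cells for meiosis, was close to absent at the start and among the highest changes at the end. It measured 0.064 and 0 RPM at CT day 3, 193 and 192 RPM at RB day 5, 1415 and 1439 RPM at RB day 7, and 1813 and 1717 RPM at RB day 9. The libraries of successive days did not overlap, and the 2 libraries of a day lay close together. The log2 difference between RB day 9 and CT day 3 was 10.74 ± 0.27 (SE; adjusted p = 8.03e-24), a size that depends on the pseudocount because 1 read or none was found at day 3. The step between days 5 and 7 passed the test (2.88 ± 0.27, adjusted p = 4.11e-09), whereas that between days 7 and 9 did not (0.31 ± 0.27, adjusted p = 0.41). All 7 tested regulators of meiotic entry rose by day 9, with a median of 5.17, beside 28.1% of all genes. Of them 5 had risen at day 5, when 2.79% of all genes were called. Meioc, listed as Gm1564, a partner of the RNA helicase YTHDC2, was at 0 in both CT day 3 libraries and at 268 and 335 RPM at RB day 9, at least 376-fold higher against a floor of 3 reads per library. Zglp1, a regulator of the oogenic programme, measured 1.66 and 0.941 RPM at CT day 3, 23.4 and 9.17 at RB day 5, 47.1 and 40.3 at RB day 7, and 53.7 and 54.3 at RB day 9. Its rise was called at day 5 (2.79 ± 0.41, adjusted p = 5.05e-05) and again in the step to day 7 (adjusted p = 0.00564).

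The structural genes of meiotic chromosomes followed in a staggered order. All 13 tested cohesin and axis genes rose by day 9, when 28.1% of all genes were higher than at CT day 3. Rec8, the meiotic kleisin of cohesin, reached its final level at day 7: it measured 7.17 and 5.65 RPM at CT day 3, 29.7 and 25.8 at RB day 5, 274 and 236 at RB day 7, and 275 and 254 at RB day 9. Its day 9 and day 7 libraries overlapped, and that step was not called (0.06 ± 0.23, adjusted p = 0.888). Sycp3, a component of the axis, kept rising through the last step. It measured 5.50 and 0.941 RPM at CT day 3, 18.5 and 24.8 at RB day 5, 192 and 228 at RB day 7, and 1455 and 1603 at RB day 9, with a log2 difference of 2.86 ± 0.39 between days 9 and 7 (adjusted p = 2.05e-06). Smc1b, a meiotic cohesin subunit, rose at each step, to 1668 and 1824 RPM at RB day 9, against 26.2 and 31.5 RPM at CT day 3. Sycp1 and Sycp2, of the synaptonemal complex that joins paired chromosomes, gained 8.11 ± 0.39 and 8.06 ± 0.50 on the log2 scale, and Tex12, of its central element, gained 7.57 ± 0.40. Each of these 3 was higher in both RB day 9 libraries than in both CT day 3 libraries.

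The recombination genes came later. Of 22 tested, 20 rose by day 9 (median 4.55, or 4.69 with 5 members that were at 0 at day 3 set at their lower bounds), but at day 5 there was 1 called higher and 1 lower, a step at which 1.94% of all genes were higher and 0.852% lower. The gene lower at day 5 was Spo11, which makes the meiotic DNA breaks. It measured 13.4 and 7.06 RPM at CT day 3, 2.92 and 1.36 at RB day 5, 5.07 and 9.72 at RB day 7, and 63.0 and 67.9 at RB day 9. The dip at day 5 was called (-1.82 ± 0.39, adjusted p = 0.00476), a call that was lost without CT day 3 library 1 or RB day 5 library 2. The rise between days 7 and 9 was also called (3.04 ± 0.39, adjusted p = 8.23e-07). Dmc1, the meiotic strand exchange protein, measured 10.9 and 3.30 RPM at CT day 3, 6.82 and 7.13 at RB day 5, 30.4 and 43.2 at RB day 7, and 246 and 296 at RB day 9. Meiob, listed as 4930528F23Rik, a single-strand DNA binding protein of recombination, reached 203 and 196 RPM at RB day 9, against 0.256 and 0.471 RPM at CT day 3. Psmc3ip and Mnd1, which form the HOP2-MND1 complex that helps DMC1, were not called: Psmc3ip differed by 0.28 ± 0.26 (adjusted p = 0.35) and Mnd1 by 0.89 ± 0.23, below the size threshold. Of 9 tested genes of telomere attachment and movement 7 rose, among them Spdya, an activator of CDK2 at meiotic telomeres (174 and 224 RPM at RB day 9, against 0 and 0.471 RPM at CT day 3), and Majin, listed as 1700123I01Rik (51.2 and 72.6 RPM, against 0 and 0.941 RPM). Sun1, a nuclear envelope anchor, and Trip13, an ATPase of meiotic checkpoints, of the same list were not called (0.84 ± 0.17 and -0.59 ± 0.21). No member of that list was called at day 5, when 2.79% of all genes were. At RB day 9 28.1% of all genes were higher than at CT day 3.

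**Figure D2:**
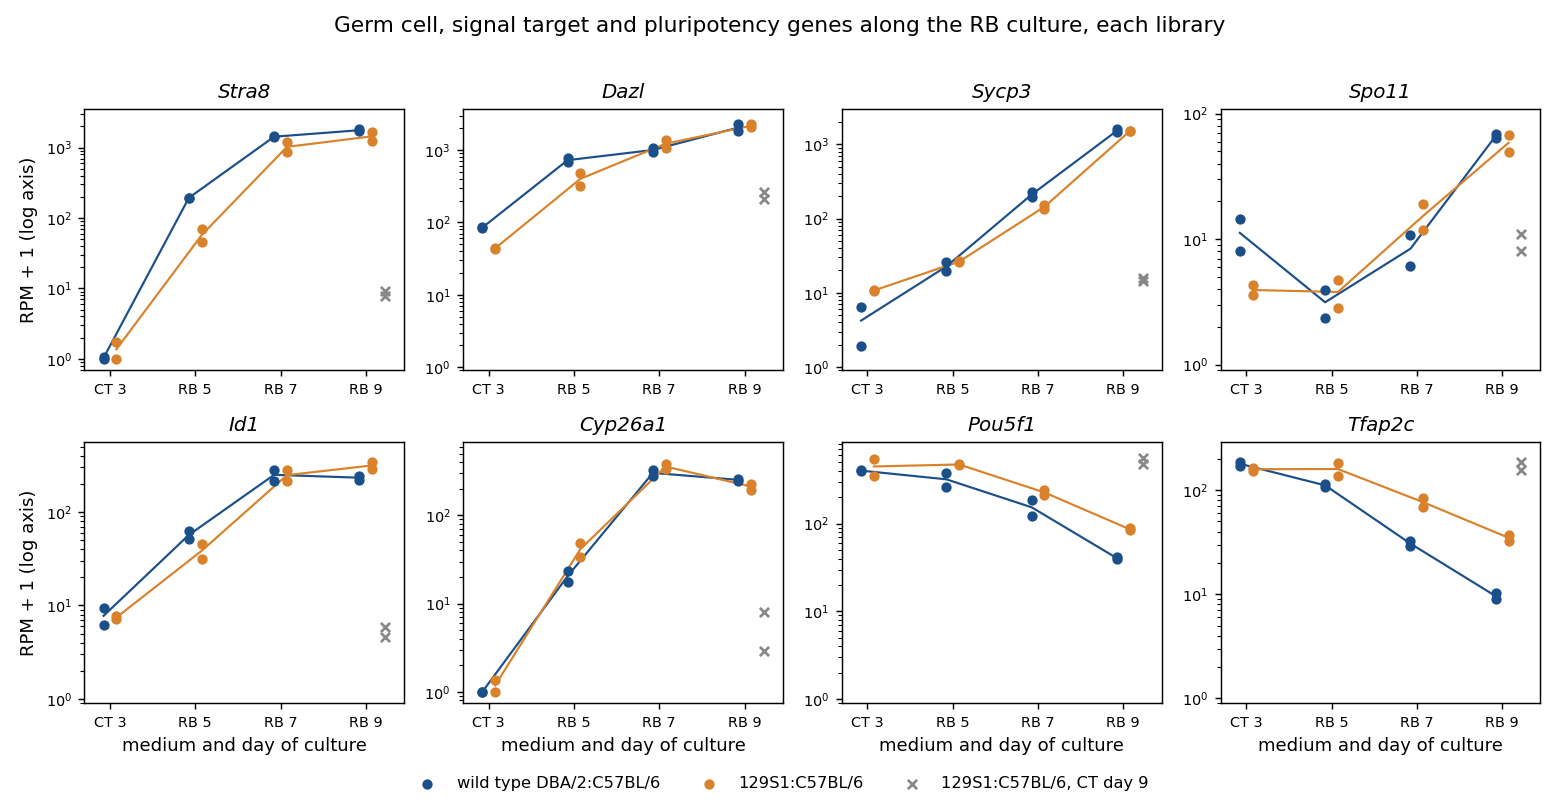
RPM + 1 on a log axis by medium and day in each library, with lines through the group means, for the wild type line (blue) and the 129S1:C57BL/6 line (orange), and CT day 9 of the 129S1:C57BL/6 line as grey crosses. Stra8 is near its final level at day 7, Sycp3 and Spo11 climb until day 9, and the wild type Tfap2c libraries lie below those of the 129S1:C57BL/6 line at days 7 and 9.

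Germ cell genes known for promoters sensitive to DNA methylation responded early. Of 16 tested, 12 were already higher at RB day 5, 15 were higher at RB day 9, and the median day 9 difference was 4.08. Over all genes 1.94% were higher at RB day 5 and 28.1% at RB day 9. Dazl, an RNA binding protein required for germ cell development, measured 84.5 and 83.3 RPM at CT day 3, 682 and 769 at RB day 5, 944 and 1062 at RB day 7, and 1831 and 2263 at RB day 9. Its first step (3.09 ± 0.24, adjusted p = 3.08e-10) was the largest of its 3 steps. Ddx4, the germ cell RNA helicase, reached 442 and 483 RPM at RB day 9, against 35.4 and 38.6 RPM at CT day 3. Taf7l, a germ cell paralog of a general transcription factor subunit, and Tex101, a germ cell surface protein, were below 1.5 RPM at CT day 3 and at 783 to 834 and 771 to 785 RPM at RB day 9. Rpl10l, the member that was not called, is known for the testis.

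The promoters of this list held the E-box CACGTG more often than promoters at large. The 250 bases before the RefSeq start site held CACGTG for 9 of the 15 members with a sequence (60.0%), against 851 of all 9601 tested genes with one (8.86%), 8.72% of the genes higher at RB day 9 and 9.34% of the genes lower. Of the 9 with the motif 8 were called higher at day 5, and of the 6 without it 4 were. CACGTG reads the same on both strands and is the core site of several basic helix-loop-helix factors. It holds a CpG, the dinucleotide that is methylated in mammals. Below are 5 of these promoters, shown for their E-boxes, and that of Stra8, shown for its nuclear receptor hexamer AGGTCA. Each is the 120 bases before the start site on the gene's own strand, 5′ to 3′, from RefSeq on GRCm38.p6 (mm10). Capitals mark matches, on either strand, of CACGTG, of AGGTCA and of GCGGGA, a motif of E2F factors. For Taf7l, Stk31 and Stra8 a longer RefSeq gene model begins before this start site.

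Sycp3 (chr10:88459467-88459586, plus strand): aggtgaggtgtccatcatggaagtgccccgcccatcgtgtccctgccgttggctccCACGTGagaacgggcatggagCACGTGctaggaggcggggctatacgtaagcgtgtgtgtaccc
Hormad1 (chr3:95559557-95559676, plus strand): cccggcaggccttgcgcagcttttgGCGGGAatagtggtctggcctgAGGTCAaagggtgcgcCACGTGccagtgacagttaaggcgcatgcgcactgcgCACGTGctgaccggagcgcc
Taf7l (chrX:134476491-134476610, minus strand): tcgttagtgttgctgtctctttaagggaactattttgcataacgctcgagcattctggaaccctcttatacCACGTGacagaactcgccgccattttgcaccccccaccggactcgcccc
Stk31 (chr6:49395419-49395538, plus strand): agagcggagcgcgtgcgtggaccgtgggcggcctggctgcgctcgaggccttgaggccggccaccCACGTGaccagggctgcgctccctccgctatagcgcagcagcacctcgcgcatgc
Slc25a31 (chr3:40708751-40708870, plus strand): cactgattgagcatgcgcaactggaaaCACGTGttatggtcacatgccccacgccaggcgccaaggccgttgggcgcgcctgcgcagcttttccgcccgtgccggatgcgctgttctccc
Stra8 (chr6:34920828-34920947, plus strand): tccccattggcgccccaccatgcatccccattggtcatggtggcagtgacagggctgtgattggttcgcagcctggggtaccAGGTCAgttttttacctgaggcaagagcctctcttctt

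The E-boxes of these 5 promoters begin 64 and 43 bases before the start in Sycp3, 57 and 20 in Hormad1, 49 in Taf7l, 55 in Stk31 and 93 in Slc25a31. Each of the 5 genes was called at day 5 and at day 9; the day 5 call of Taf7l (1.57 ± 0.45, adjusted p = 0.04) was lost in 8 of its alternatives. Hormad1, an axis protein, measured 826 and 951 RPM at RB day 9, against 31.5 and 24.2 RPM at CT day 3. Slc25a31, a germ cell ADP/ATP carrier, measured 525 and 630 RPM at RB day 9, against 14.9 and 10.8 RPM at CT day 3, and Stk31, a germ cell kinase-like protein, 504 and 544 RPM against 51.2 and 57.9 RPM. Stra8 held AGGTCA at 194 and 38 bases before the start. That hexamer was no more frequent among the genes higher at RB day 9 (10.8%) than among the genes lower (11.4%), with 10.3% of all promoters. CNCCTCAG, a motif reported for the STRA8 protein, stood in 250 of 2753 promoters of genes higher (9.08%), in 90 of 1520 of genes lower (5.92%) and in 7.28% of all. GCGGGA stood in 19 of 42 promoters of the meiotic lists (45.2%), against 31.6% of all. A match is a description of letters and not of binding, and these lists were chosen with earlier results of the data known.

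Targets of both signals were up, and most had reached their level by day 7. Of 20 tested genes of retinoic acid response and metabolism 15 were called higher at RB day 9 and none lower. The shares over all genes were 28.1% higher and 16.3% lower. With quantile normalization 11 were higher, with the median set equal 13, and with a pseudocount of 5 RPM 9. Cyp26a1, which degrades retinoic acid and is a direct target of its receptors, was at 0 in both CT day 3 libraries and measured 16.6 and 22.4 RPM at RB day 5, 327 and 277 at RB day 7, and 258 and 245 at RB day 9. At day 9 it was at least 314-fold higher than at CT day 3. Rarb, a retinoic acid receptor and direct target, measured 0.960 and 3.77 RPM at CT day 3, 9.502 and 9.85 at RB day 5, 42.0 and 42.3 at RB day 7, and 44.5 and 38.9 at RB day 9. Others of the list peaked at day 7: between days 9 and 7 the list had 1 gene higher and 5 lower, a step at which 9.95% of all genes were higher and 6.78% lower. Hoxb1, a Hox gene known for a retinoic acid response, was at 0 at CT day 3 and RB day 5, at 4.34 and 6.80 RPM at RB day 7, and at 0.839 and 1.405 RPM at RB day 9 (-1.62 ± 0.40 between days 9 and 7, adjusted p = 0.00227). Tgm2, a transglutaminase induced by retinoic acid, measured 5.88 and 9.36 RPM at RB day 9, against 28.2 and 30.1 RPM at RB day 7 (-1.84 ± 0.44, adjusted p = 0.0018).

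Of 15 tested BMP targets and inhibitors 9 were higher and 2 lower at RB day 9, or 8 and 3 under either rescaling. Without rescaling 28.1% of all genes were higher and 16.3% lower. Id1, an inhibitor of basic helix-loop-helix factors and a SMAD target, measured 8.32 and 5.18 RPM at CT day 3, 50.7 and 61.1 at RB day 5, 282 and 217 at RB day 7, and 243 and 221 at RB day 9. Its libraries of days 7 and 9 overlapped. Id2 went the same way, with 108 and 111 RPM at RB day 9 against 10.0 and 6.59 RPM at CT day 3. Id3, high from the start at 260 and 262 RPM, differed by 0.62 ± 0.18 and was below the size threshold. Hey1, a Notch and BMP target, fell to 10.1 and 16.9 RPM at RB day 9, against 181 and 135 RPM at CT day 3 (-3.48 ± 0.24, adjusted p = 3.48e-13), and Grem1, a secreted BMP inhibitor, was the other gene lower (-2.14 ± 0.61, adjusted p = 0.00328). No member was called in either direction between days 9 and 7, a step at which 16.7% of all genes were called.

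The pluripotency and early germ cell programme was reduced almost throughout. Of 26 tested genes 24 fell by RB day 9, with a median of -2.70, beside 16.3% of all genes. None was called at day 5, when 2.79% of all genes were. Pou5f1, which encodes OCT4, measured 398 and 403 RPM at CT day 3, 378 and 259 at RB day 5, 185 and 120 at RB day 7, and 40.3 and 38.4 at RB day 9. The day 5 libraries lay below those of day 3 but did not pass the test (-0.35 ± 0.19, adjusted p = 0.376), while the later steps did, that to day 7 not without RB day 5 library 1 or RB day 7 library 2. Nanog fell to 25.2 and 10.8 RPM at RB day 9, against 195 and 204 RPM at CT day 3, and Sox2 to 38.6 and 29.0 RPM, against 292 and 278 RPM. Prdm1 and Tfap2c, 2 specifiers of the germ cell lineage, fell by 2.48 ± 0.19 and 4.22 ± 0.17 on the log2 scale. Dppa3, the gene named in 1 of the 2 reporters, fell to 255 and 203 RPM, against 1403 and 1170 RPM. Tdgf1, a co-receptor of NODAL, was among the genes with the largest fall: it measured 61.4 and 65.4 RPM at CT day 3, 45.8 and 57.1 at RB day 5, 8.69 and 23.3 at RB day 7, and 1.68 and 0.468 at RB day 9. Klf4 was the 1 member called higher (1.38 ± 0.49, adjusted p = 0.0155), a call that was lost under both rescalings, without RB day 9 library 2 and without CT day 3 library 1, and Lin28a was not called.

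Glycolysis fell late and as a group. Of 15 tested genes 14 were lower at RB day 9, with a median of -2.27, beside 16.3% of all genes. In the last step alone 13 were lower, beside 6.78% of all genes. Of the 14, 12 had less than 50% of their day 9 difference at day 7. Eno1, an enolase, measured 486 and 605 RPM at CT day 3, 546 and 465 at RB day 5, 336 and 258 at RB day 7, and 79.7 and 56.2 at RB day 9. Aldoa, an aldolase, fell to 57.5 and 33.2 RPM at RB day 9, against 406 and 404 RPM at CT day 3. Hk1, a hexokinase, fell earlier and measured 14.48 and 11.2 RPM at RB day 7 and 3.36 and 4.68 RPM at RB day 9, against 63.3 and 63.1 RPM at CT day 3. Ldha, lactate dehydrogenase A, took another course: 85.8 and 77.2 RPM at CT day 3, 149 and 198 at RB day 5, 303 and 198 at RB day 7, and 37.8 and 29.97 at RB day 9. Its rise at day 5 (1.07 ± 0.27, adjusted p = 0.0199) and its fall between days 7 and 9 (-2.83 ± 0.27, adjusted p = 9.30e-09) were both called, the rise not without either CT day 3 library or RB day 5 library 2. Gpi1 was below the size threshold (-0.78 ± 0.14).

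Mitotic genes moved less evenly. Of 23 tested 9 were lower and 3 higher at RB day 9, with a median of -0.79, where 16.3% of all genes were lower and 28.1% higher. Ccnb1, the cyclin of mitotic entry, fell to 168 and 143 RPM at RB day 9, against 671 and 640 RPM at CT day 3 (-2.07 ± 0.14, adjusted p = 2.62e-13). Mki67, a proliferation marker, measured 311 and 334 RPM, against 263 and 354 RPM, which overlapped and was not called (0.08 ± 0.19, adjusted p = 0.736). Of 17 DNA replication genes 5 were lower and none higher, beside 16.3% lower and 28.1% higher over all genes. Of 6 tested CDK inhibitor genes 4 were higher, or 1 with quantile normalization and 2 without RB day 9 library 2.

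Among other groups, the major histocompatibility gene H2-K1 rose to 855 and 1057 RPM at RB day 9, against 31.7 and 31.5 RPM at CT day 3 (4.87 ± 0.20, adjusted p = 3.50e-18), and B2m, its partner chain, to 201 and 222 RPM, against 61.8 and 86.6 RPM. In the list of antigen presentation and interferon genes 6 of 11 tested were higher and 4 lower. For this list and those that follow, the shares over all genes were 28.1% higher and 16.3% lower. Of 6 tested oocyte genes 3 were higher at RB day 9 and 1, Kit, a receptor tyrosine kinase of germ cells, was lower, a call lost in 3 alternatives; Ooep and Jag1 were not called. Figla, a transcription factor of the early oocyte, measured 39.5 and 36.5 RPM at RB day 9, against 0.384 and 0.471 RPM at CT day 3; Nobox and Lhx8, of later oocytes, did not pass the filter. In the piRNA pathway, which silences transposons, 11 of 16 rose and 2 fell, Tdrd5 and Ddx39, the call of Tdrd5 being lost in 3 alternatives. Uhrf1, a partner of the maintenance methyltransferase, rose (2.64 ± 0.43, adjusted p = 5.17e-06) and Tet1, a methylcytosine dioxygenase, fell (-3.36 ± 0.28, adjusted p = 2.31e-11). Of 11 DNA methylation genes 2 were called in each direction, or 2 higher and 3 lower under either rescaling. As a group they did not stand out from the shares over all genes.

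Markers of other cells moved too. Of 11 tested fibroblast and feeder markers 6 were lower and 2 higher at RB day 9, where 16.3% of all genes were lower and 28.1% higher. With quantile normalization 8 were lower and none higher, with a pseudocount of 5 RPM 5 and none, and without RB day 9 library 2 there were 4 lower and 2 higher. The number higher was 1 when RB day 9 library 1, or any CT day 3 library, was left out. The 14 markers of the list summed to 400 and 320 RPM at RB day 9, against 882 and 854 RPM at CT day 3, with 2 of them at 0 in each of these libraries. Fn1, a matrix protein, made up most of that sum, with 259 and 210 RPM against 549 and 474 RPM. Col3a1, a fibrillar collagen, measured 9.23 and 0.468 RPM at RB day 9, against 89.5 and 94.6 RPM at CT day 3, and was the largest fall at day 5 (-2.88 ± 0.57, adjusted p = 0.00227). The gonadal somatic markers summed to 34.4 and 28.1 RPM, against 7.42 and 8.94 RPM. Gata4 and Inha were the 2 called higher of 3 tested. With genes above 0 in at least 2 libraries 5 of 9 tested were higher, beside 4134 of all 19725 genes. With wild type fitted alone 1 of 2 was higher. Of the 11 markers 4 and 5 were at 0 at RB day 9, against 6 and 10 at CT day 3. The part of such cells in the results was not tested. Klhl2 was named among the largest falls with unequal libraries: it measured 24.8 and 20.7 RPM at CT day 3, 29.97 and 0.679 at RB day 5, 30.4 and 0.486 at RB day 7, and 0 in both at RB day 9, and its call (adjusted p = 0.0327) was lost when any of its 4 libraries was left out.

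The calls were spread over the later steps of the path, with few at day 5. Against the group before it, 239 genes were higher and 105 lower at RB day 5, 1763 higher and 551 lower at RB day 7, which is 18.8% of genes (14.3% higher and 4.47% lower), and 1227 higher and 836 lower at RB day 9. The day 7 step thus had more genes higher than the day 9 step, and the day 9 step more genes lower. With quantile normalization there were 1074 genes higher and 1060 lower in the day 7 step and 1208 higher and 1062 lower in the day 9 step, so that the order of the totals changed. With the median set equal there were 1212 and 988 in the day 7 step and 1154 and 943 in the day 9 step. The day 5 count rested on single libraries: it was 148 without RB day 5 library 2, 173 without CT day 3 library 2 and 229 without RB day 5 library 1, in place of 344. Of the 3470 genes higher at day 9, 9.65% had at least 50% of that difference at day 5, 56.8% reached it at day 7 and 33.5% at day 9. For the 2011 genes lower these shares were 12.2%, 46% and 41.8%. All 11 piRNA genes and all 15 methylation-sensitive genes that rose had passed that mark by day 7, while 11 of the 20 recombination genes and 8 of the 9 mitotic genes passed it at day 9.

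**Figure D3:**
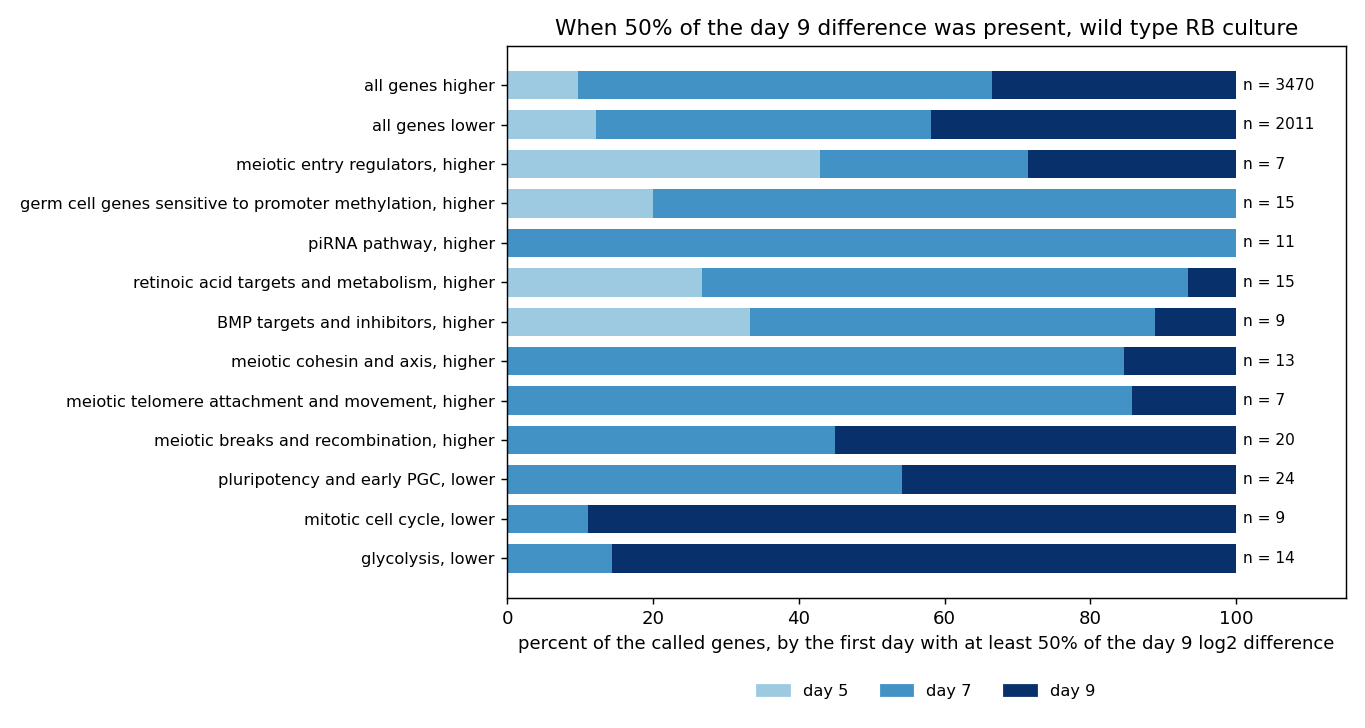
Percent of the called genes of all genes and of gene lists (rows) by the first day at which at least 50% of the day 9 log2 difference was present in the wild type RB culture, with the number of genes at the right. Meiotic entry, BMP and retinoic acid genes hold the largest day 5 shares, and glycolysis and mitotic genes the largest day 9 shares among the lists drawn.

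Individual genes mark each step. At RB day 5, besides Stra8 and Dazl, Mdk, a heparin-binding growth factor, rose to 175 and 130 RPM, against 21.3 and 15.1 RPM at CT day 3, and Baz1a, a chromatin remodelling subunit, to 37.8 and 45.5 RPM, against 4.42 and 5.65 RPM. At RB day 7 Nrcam, a neuronal adhesion molecule, appeared with 20.3 and 27.7 RPM, against 0.244 and 0 RPM at RB day 5. At RB day 9 Amy1, an amylase gene of a multigene family whose reads may be shared among copies, measured 42.8 and 28.6 RPM, against 0 and 0.486 RPM at RB day 7, and Rad51ap2, a recombination factor, 109 and 225 RPM, against 5.07 and 8.74 RPM. A rise followed by a fall was called for 139 genes (1.13%), 120 of them through the day 7 level and 32 through the day 5 level, some through both, and a fall followed by a rise for 72 genes (0.584%). Actn2, an actin cross-linker, measured 12.4 and 10.4 RPM at CT day 3, 48.0 and 40.4 at RB day 5, 20.3 and 13.6 at RB day 7, and 7.55 and 4.21 at RB day 9. Hk2, another hexokinase, had the same form, although its day 5 rise was lost in 8 alternatives, with 30.2 and 41.1 RPM at RB day 5 and 5.88 and 4.68 RPM at RB day 9.

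The same culture in the 129S1:C57BL/6 line gave a closely similar set of genes. In that line 3433 genes were higher and 1663 lower at RB day 9 than at CT day 3 (41.3% of genes tested, 27.8% higher), or 2508 and 2749 with the median set equal. Of the genes higher, 2853 were shared, which is 82.2% of the wild type list and 83.1% of the 129S1:C57BL/6 list. Of the genes lower, 1323 were shared, 65.8% and 79.6% of the lists, and 0 and 2 genes were called in opposite directions. Across the 12329 genes, which are not independent, the 2 sets of differences correlated at r of 0.915 with a slope of 0.968. The 2 comparisons share no library. Over the shared genes that rose, the median difference from CT day 3 at day 9 was 2.08 in wild type and 2.05 in the 129S1:C57BL/6 line.

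That line also has CT libraries of day 9, which show time without RB. Its CT day 9 against CT day 3 called 193 genes higher (1.57%) and 71 lower (0.576%), 2.14% in all and 108 to 158 genes when any of its 4 libraries was left out, while its RB day 9 against CT day 9 called 3118 higher (25.3%) and 1434 lower (11.6%), 36.9% in all. With the median set equal these were 177 higher and 120 lower, and 2279 higher and 2285 lower. Of the wild type genes higher at RB day 9, 75.7% were higher in the RB comparison at fixed day and 3.46% in the comparison of CT days. The median wild type difference of 1.91 over its genes higher stood beside 1.59 and 0.198 for the same genes in these comparisons. The comparison of CT days called few genes, which limits the share of 3.46%. Of its 193 genes higher, 120 (62.2%) were higher in wild type at RB day 9 and 10 lower. Of its 71 genes lower, 40 (56.3%) were lower in wild type and 8 higher. Stra8 measured 6.75 and 8.08 RPM at CT day 9 of the 129S1:C57BL/6 line, below every RB library of either line. Dazl measured 207 and 264 RPM there, above its 41.8 and 43.8 RPM at CT day 3.

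**Figure D4:**
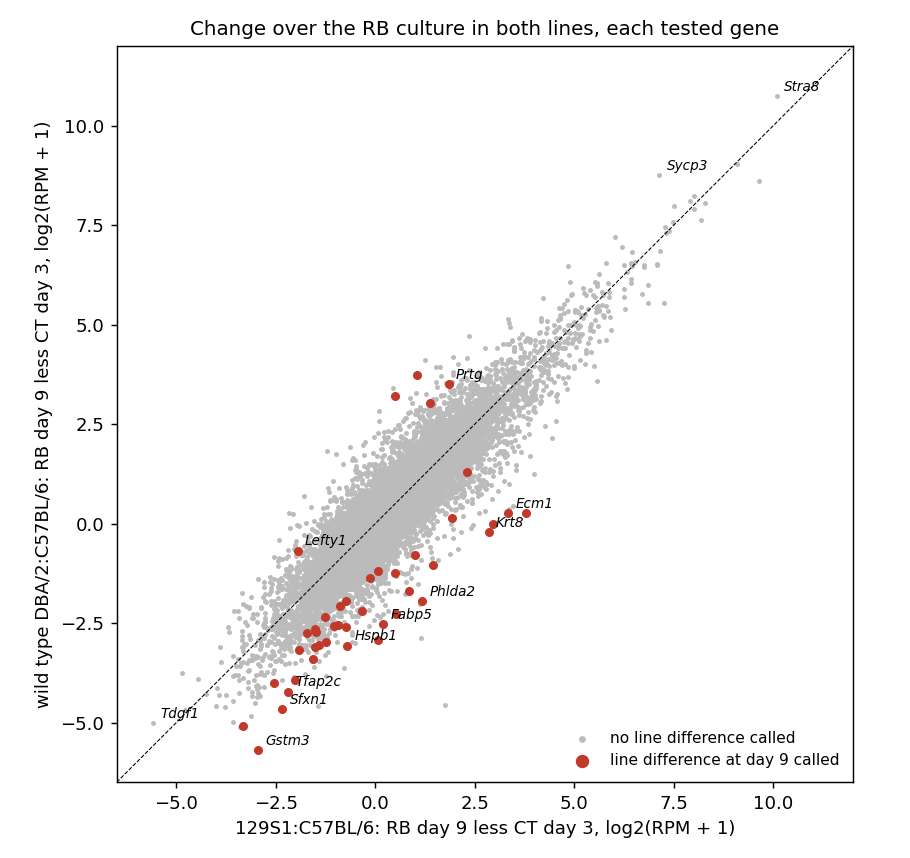
Log2 difference between RB day 9 and CT day 3 of each of 12329 genes in the wild type line (vertical axis) against the 129S1:C57BL/6 line (horizontal axis), on the log2(RPM + 1) scale, with equal change as the dashed line. Most genes follow the line (r of 0.915), and red points mark the 43 genes whose change differed between the lines.

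The change from CT day 3 differed between the lines for few genes when the difference itself was tested: 8 genes had a higher change in wild type and 6 a lower one at day 5 (0.0649% and 0.0487%, 0.114% in all), 26 and 87 at day 7 (0.211% and 0.706%, 0.917% in all), and 5 and 38 at day 9 (0.0406% and 0.308%, 0.349% in all). With the median set equal these were 11 and 5, 43 and 65, and 8 and 22. With the library number as a block there were 28, 243 and 116 in all at days 5, 7 and 9. These counts rested on single libraries. They ran between 2 and 13 at day 5, 42 and 139 at day 7, and 8 and 111 at day 9 as each library was left out, with 8 at day 9 without CT day 3 library 1 of the 129S1:C57BL/6 line and 111 without RB day 9 library 1 of wild type.

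Glycolysis was the list with the most members among them. At day 7 its change was higher in wild type for 6 of 15 genes, at day 5 for 2, and at day 9 it was lower in wild type for 3. Of those at day 5, Tpi1 lay near the threshold (1.56 ± 0.32, adjusted p = 0.0411). Ldha gave the largest of these differences. In wild type it measured 149 and 198 RPM at RB day 5, 303 and 198 at RB day 7, and 37.8 and 29.97 at RB day 9, while in the 129S1:C57BL/6 line it measured 19.8 and 22.5, 25.4 and 21.4, and 77.8 and 114 RPM on those days. The lines did not overlap at any of the 3 days, and the order turned between days 7 and 9. Pgk1, phosphoglycerate kinase, measured 476 and 399 RPM at RB day 7 in wild type and 182 and 177 RPM in the 129S1:C57BL/6 line, from like levels at CT day 3 (448 and 532 RPM in wild type, 498 and 469 RPM in the other line). Pdk1 and Bnip3, 2 genes known to respond to low oxygen, were named after their values were seen. At RB day 7 they had 112.2 and 105 RPM and 173 and 131 RPM in wild type. In the 129S1:C57BL/6 line they had 24.8 and 20.2 RPM and 53.1 and 57.9 RPM. At RB day 9 Pdk1 had 39.5 and 37.0 RPM in wild type and 26.6 and 23.3 RPM in the other line. Bnip3 overlapped at that day, with 113 and 86.6 RPM against 90.1 and 128 RPM. A part of oxygen in these differences was not tested. The line differences of Ldha and Pgk1 at day 7 kept their calls in all 14 alternatives tried.

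Of the listed NODAL ligand, co-receptor and inhibitor genes, Tdgf1 differed at day 7 and Lefty1 at day 9, while Nodal and Lefty2 had no called line difference. Smad3, an effector of NODAL and related signals outside the lists, differed the other way at day 9 (-1.62 ± 0.35, adjusted p = 0.0298). Tdgf1 fell more slowly in wild type, with 8.69 and 23.3 RPM at RB day 7, against 1.75 and 0 RPM in the 129S1:C57BL/6 line (line difference 3.30 ± 0.60, adjusted p = 0.00322). By day 9 it was below 2 RPM in all 4 libraries. Lefty1, an inhibitor of NODAL, had a line difference of 1.26 ± 0.27 at day 9 (adjusted p = 0.0249), lost in 4 of its alternatives. Stra8 itself rose further in wild type at day 5 (2.14 ± 0.38, adjusted p = 0.0107), with 193 and 192 RPM against 44.6 and 67.9 RPM in the 129S1:C57BL/6 line; the call was lost in 5 of 14 alternatives, and at days 7 and 9 its line difference was not called.

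Other genes had a lower change in wild type. Phlda2, an imprinted gene that restrains growth of the placenta, fell to 43.7 and 25.8 RPM at RB day 9, against 142 and 124 RPM at CT day 3, while in the 129S1:C57BL/6 line it rose to 108 and 78.9 RPM, against 37.5 and 43.5 RPM. The line difference was -3.13 ± 0.39 (adjusted p = 3.42e-05) and was already -3.07 ± 0.39 at day 5. Tfap2c measured 9.23 and 7.96 RPM at RB day 9 in wild type and 36.1 and 31.7 RPM in the 129S1:C57BL/6 line, with 170 and 186 RPM and 152 and 163 RPM at CT day 3 (-2.04 ± 0.25, adjusted p = 3.42e-05). Krt8, a keratin of epithelia listed among the somatic lineage markers, stayed at or below 1.47 RPM in every wild type library. In the 129S1:C57BL/6 line it measured 27.6 and 14.49 RPM at RB day 9 and 5.46 and 13.1 RPM at CT day 9. The somatic lineage markers summed to 50.4 and 45.0 RPM at RB day 9 in wild type and 122 and 81.8 RPM in that line, and the part of such cells in the Krt8 difference, which was lost in 3 alternatives, was not tested. Col3a1 and Dcn, of the fibroblast list, had negative line differences at day 7 (-3.66 ± 0.81 and -2.76 ± 0.63) that were lost in 7 and 8 alternatives, and their CT day 3 levels were 89.5 and 94.6 RPM and 35.8 and 41.0 RPM in wild type, against 25.7 and 38.7 RPM and 15.1 and 15.47 RPM in the 129S1:C57BL/6 line.

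**Figure D5:**
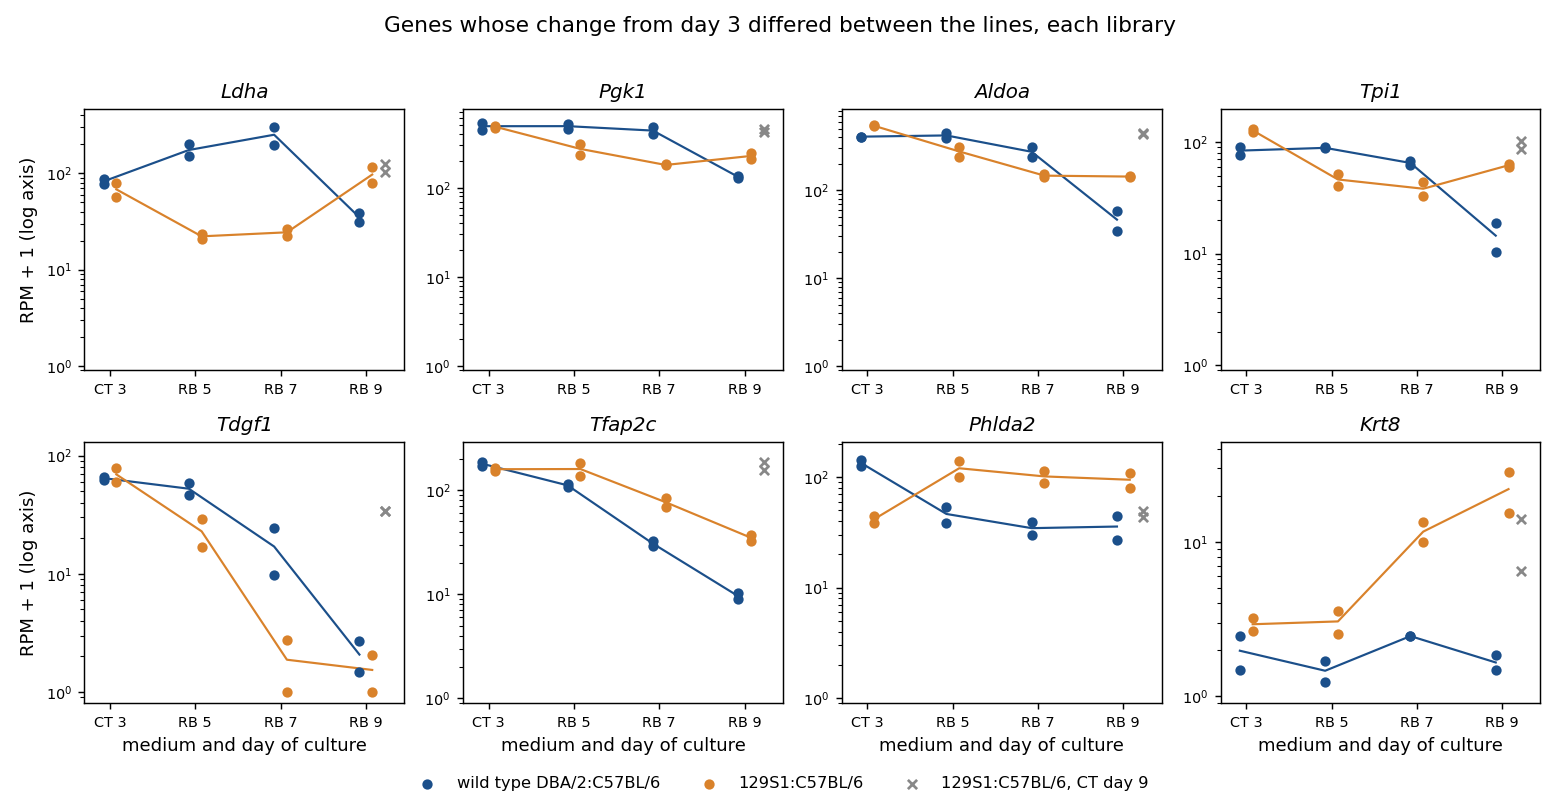
RPM + 1 on a log axis by medium and day in each library, with lines through the group means, for genes with a called line difference on at least 1 day in the wild type line (blue) and the 129S1:C57BL/6 line (orange), and CT day 9 of the 129S1:C57BL/6 line as grey crosses. Ldha, Pgk1, Aldoa and Tpi1 lie higher in wild type at day 7 and lower at day 9, and Phlda2 moves in opposite directions in the lines.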

How the data were processed

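SC3-seq reads are taken from the 3′ ends of transcripts. The submitters' processing notes name the build mm10 and, without roles or settings, the tools Cufflinks 2.2.0, Bowtie 1.0.1, TopHat 1.4.1 and cutadapt 1.11. The deposited table holds signal in RPM (reads scaled to a common total) per gene, which the authors did not divide by length; it has 26218 genes and 96 spike-in rows, and values below 0.001 RPM were set to 0 here. Of the low values, 88.9% to 94.3% per library were whole multiples (within 0.05) of what 1 read is worth, too few to recover counts, so a log scale test was used. One limma fit (limma 3.58.1, R 4.3.3; lmFit, eBayes with trend) of log2(RPM + 1) with 1 mean per group covered 30 libraries in 15 groups of 2 of the 2 lines, with 15 residual degrees of freedom; p-values were adjusted over all 12329 genes. Fold bounds use 3 reads per library as a floor and cover counting error alone. Samples were grouped by their labels. The gene lists, members and tests were chosen with earlier results of these data known. Named genes were Stra8, list members and genes taken by rank. The ranked genes were the 12 called genes with the largest difference each way in the main comparison, 6 in each step and 8 in the day 9 line difference. They had a mean of 20 RPM or more in the highest group and no overlap of libraries. Predicted names were left out unless they belonged to a list. The 5 transient genes each way with the largest return were taken under the same limits. Promoters were the 250 bases before the start site in RefSeq's table for GRCm38.p6, which held 9601 of the genes tested. The fit was tested on simulated data. Other pseudocounts, filters, scalings, samples, a replicate block and left-out libraries were tried. The line difference of 1 gene is not reported here. Stra8 knockout libraries, single ones among them, entered only an alternative fit of wild type. Embryo libraries and the other single libraries were not used.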

Additional observations from a re-analysis of the deposited data

Results flagged for a closer look

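The change from CT day 3 differed between the wild type and 129S1:C57BL/6 lines, by a test of the difference itself (wild type change less the change in the other line, log2), for 14 genes at day 5, 113 at day 7 and 43 at day 9. Named genes with a positive difference at day 5 were Ldha (2.67), Stra8 (2.14) and Tpi1 (1.56), and those with a negative one were Phlda2 (-3.07), Msx2 (-1.88) and Gata2 (-1.37). Of these, Ldha and Phlda2 had the largest differences, and Gata2, Msx2 and Stra8 lost their calls under several alternatives. All of these genes but Phlda2 are list members, and 4 of those 5 lost their calls with genes above 0 in at least 2 libraries. Tpi1 lay near the threshold (adjusted p = 0.0411 in the limma fit).

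At day 7 the positive differences were those of Tdgf1 (3.30), Ldha (3.05), Prelid2 (2.77), Pfkl (2.15), Tpi1 (1.39), Aldoa (1.30), Pgk1 (1.26), Eno1 (1.24) and the cohesin gene Smc1b (1.08). The negative ones were those of Col3a1 (-3.66), Phlda2 (-3.25), Hspb1 (-3.02), Dcn (-2.76), Spo11 (-2.35), Msx2 (-1.82), Zfp296 (-1.51), Tfap2c (-1.49) and Mt2 (-1.43).

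At day 9 the positive differences were those of Prtg (1.65) and Lefty1 (1.26). The negative ones were those of Phlda2 (-3.13), Ecm1 (-3.07), Krt8 (-3.07), Gstm3 (-2.75), Fabp5 (-2.72), Hspb1 (-2.37), Sfxn1 (-2.32), Tfap2c (-2.04), Dennd1c (-1.75), Ldha (-1.75), Tpi1 (-1.55) and Aldoa (-1.26).

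Outside the gene measurements, the spike-in rows had a median of 42185 RPM in the 4 wild type libraries numbered 1 and of 14.6 RPM in the 4 numbered 2.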

How the results depend on the processing

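No call of a named gene or list member reversed under any alternative. A pseudocount of 5 RPM gave 201 calls at RB day 5 against CT day 3 (344 with 1 RPM), 1302 between days 7 and 5 (2314), 1267 between days 9 and 7 (2063) and 162 for CT day 9 against CT day 3 of the 129S1:C57BL/6 line (264). Fitting wild type with the Stra8 knockout libraries in place of the 129S1:C57BL/6 line gave 215 at day 5. With genes above 0 in at least 2 libraries, line differences numbered 3 at day 5 and 98 at day 9. Replicate numbers did not pair the libraries by their deviations from the group means (r between 0.0274 and 0.11 over 6 pairs of wild type groups, and between -0.0651 and 0.225 over 55 pairs in the other line), although in wild type they go with the spike-in level; with the replicate block the main comparison had 3493 genes higher and 2022 lower, and line differences numbered 28, 243 and 116 at days 5, 7 and 9. With 1 library left out in turn, the lone library of its group is assumed to vary like the other groups; the counts ran between 5012 and 5369 (RB day 9 against CT day 3), 148 and 243 (day 5), 1784 and 2067 (days 7 and 5), 1657 and 2169 (days 9 and 7), 4580 and 5011, 4005 and 4417, and 108 and 158 (in the 129S1:C57BL/6 line, RB day 9 against CT day 3, RB day 9 against CT day 9, and CT day 9 against CT day 3), and 2 and 13, 42 and 139, and 8 and 111 (line differences at days 5, 7 and 9). At day 7 the line differences numbered 53 and 71 without wild type CT day 3 library 1 or 2, 49 and 67 without those of the other line and 42 without its RB day 7 library 2. At day 9 the line differences numbered 22 and 23 without wild type CT day 3 library 1 or 2, 17 without RB day 9 library 1 of the other line and 25 without its CT day 3 library 2. The cause was not tested. Higher shares under median centring and quantile normalization were 50.5% and 47.8% for RB day 9 against CT day 3 (63.3% without rescaling), 47.7% and 47.7% for that comparison in the 129S1:C57BL/6 line (67.4%), 49.9% and 47.3% for its RB against CT at day 9 (68.5%), and 26.7% and 24.1% for line differences at day 9 (11.6%). Depth limits genes near 2 RPM, where 3 reads set the floor.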
